A study of Mus musculus with 10 samples.

Results

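The 75 genes described here encode the mitogen-activated protein (MAP) kinases, the kinases that act above them, and dual-specificity phosphatases (DUSPs) and Sprouty proteins that restrain them. They are the protein-coding entries, among 18464 genes in the deposited table, whose symbol starts with Mapk, Map2k, Map3k, Map4k, Dusp, Spry or Spred and a digit, with Dusp1 left out. The 75 entries carry 74 symbols, because Map2k7 has a pair of identifiers. The tissue was ventral midbrain, the SNpc and VTA (pars compacta of the substantia nigra and ventral tegmental area), of naive Aldh1l1-NuTRAP mice. In these animals ribosomes are tagged by way of Aldh1l1, a gene active in brain mainly in astrocytes, so that the astrocytes' translating RNA can be pulled down. Both groups come from this strain and had no drug: 5 libraries of input RNA, unselected for cell type, and 5 of the pulled-down astrocyte fraction, each poly(A) library made from 25 ng of total RNA. Differences between the groups are fitted log2 fold changes (fraction relative to input). The SE beside a gene's fold change is that of the difference in mean log2 level between libraries. It is not the error of the fitted value, and at low counts the fitted value and that difference can diverge. The labels give no age, sex or allele detail, and do not say whether the title numbers 88, 92, 976, 981 and 982, each shared by 1 input and 1 fraction library, are separate animals. The p-values therefore measure the spread between these libraries, which may be technical.

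MAP kinase signalling runs through tiers. A MAP4 kinase or a small GTPase activates a MAP3 kinase, which phosphorylates a MAP2 kinase, which in turn phosphorylates a MAP kinase on a threonine and a tyrosine. The main branches end in ERK, which follows growth factors, and in JNK and p38, which follow stress and cytokines. In neurons JNK signalling is also tied to axon injury and transport. DUSPs of the MAP kinase phosphatase class remove both phosphates, and Sprouty and Spred proteins dampen the step from receptor to Raf. Several of these inhibitors are themselves induced by ERK activity, as feedback.

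Libraries held 21812193 to 30878894 expected counts in the input, 24479136 to 26924406 in 4 fraction libraries and 3845554 in fraction library 92, so that 1 count there is worth 0.293 CPM (counts scaled to each library's depth) against at most 0.0452 CPM elsewhere. Of the cell type markers, all 12 for astrocytes were higher in the fraction, at a median difference of 3.08 in log2 units, and Aldh1l1 itself had 108, 99.00, 88.2, 104 and 98.2 CPM in the input libraries and 877, 773, 673, 849.6 and 899 CPM in the fractions (title numbers 88, 92, 976, 981 and 982 in this order, here and below). All 12 neuronal, 10 oligodendrocyte, 5 oligodendrocyte precursor and 10 microglial markers were lower, with medians of -2.43, -3.83, -3.21 and -4.23, as were all 4 red blood cell markers (-2.55). Endothelial markers were less uniform, with 5 of 9 lower, 4 not called and a median of -0.42. Of 10 mural and fibroblast markers, 7 were lower, 2 higher and 1 not called (median -1.45). The choroid plexus gene Ttr stood at 604 CPM or more in both libraries of the numbers 976 and 982, and at 0.334 to 11.5 CPM in the others. The neuronal markers summed to 7232 to 8526 CPM in the inputs and 1482 to 1912 CPM in the fractions, and the part that RNA of other cell types plays in the members' values was not tested. Input RNA also holds the astrocytes' own RNA. In such bulk RNA, fewer cells of a type and less RNA per cell cannot be told apart.

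More of these genes were lower than higher in the astrocyte fraction, and the direction divided close relatives. Of 74 members tested, 20 were higher (27.0%, against 33.1% of all 17672 genes tested), 40 were lower (54.1%, against 37.5%) and 14 were not called at an adjusted p of 0.05 with edgeR's quasi-likelihood test. At 2-fold or more, 7 were higher and 24 lower, where all genes gave 16.1% and 24.3%. The median log2 fold change of the members was -0.46, against -0.06 for all genes. The CPM of both groups did not overlap for 44 members (59.5%, against 58.2% of all genes). Higher in the fraction by 2-fold or more were Dusp18, Map3k19, Mapk4, Spry2, Spred1, Spred2 and Map4k4. Positions are those of the deposited table, with mm10 named as the build in the submitters' processing notes. The most strongly lower were Mapk11, the JNK scaffold gene Mapk8ip2, Dusp8 and Map3k9. Scaled to total counts, which lowers the median of all genes from -0.06 to -0.34, 12 members were higher and 46 lower, and the higher members made up 20.7% of those called instead of 33.3%. Of the 75, only Dusp9 did not pass the filter on low counts; it was at 0.541 ± 0.494 CPM in the inputs against 0.122 ± 0.149 CPM in the fractions (SD, n = 5), near the level of a few counts.

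**Figure D1:**
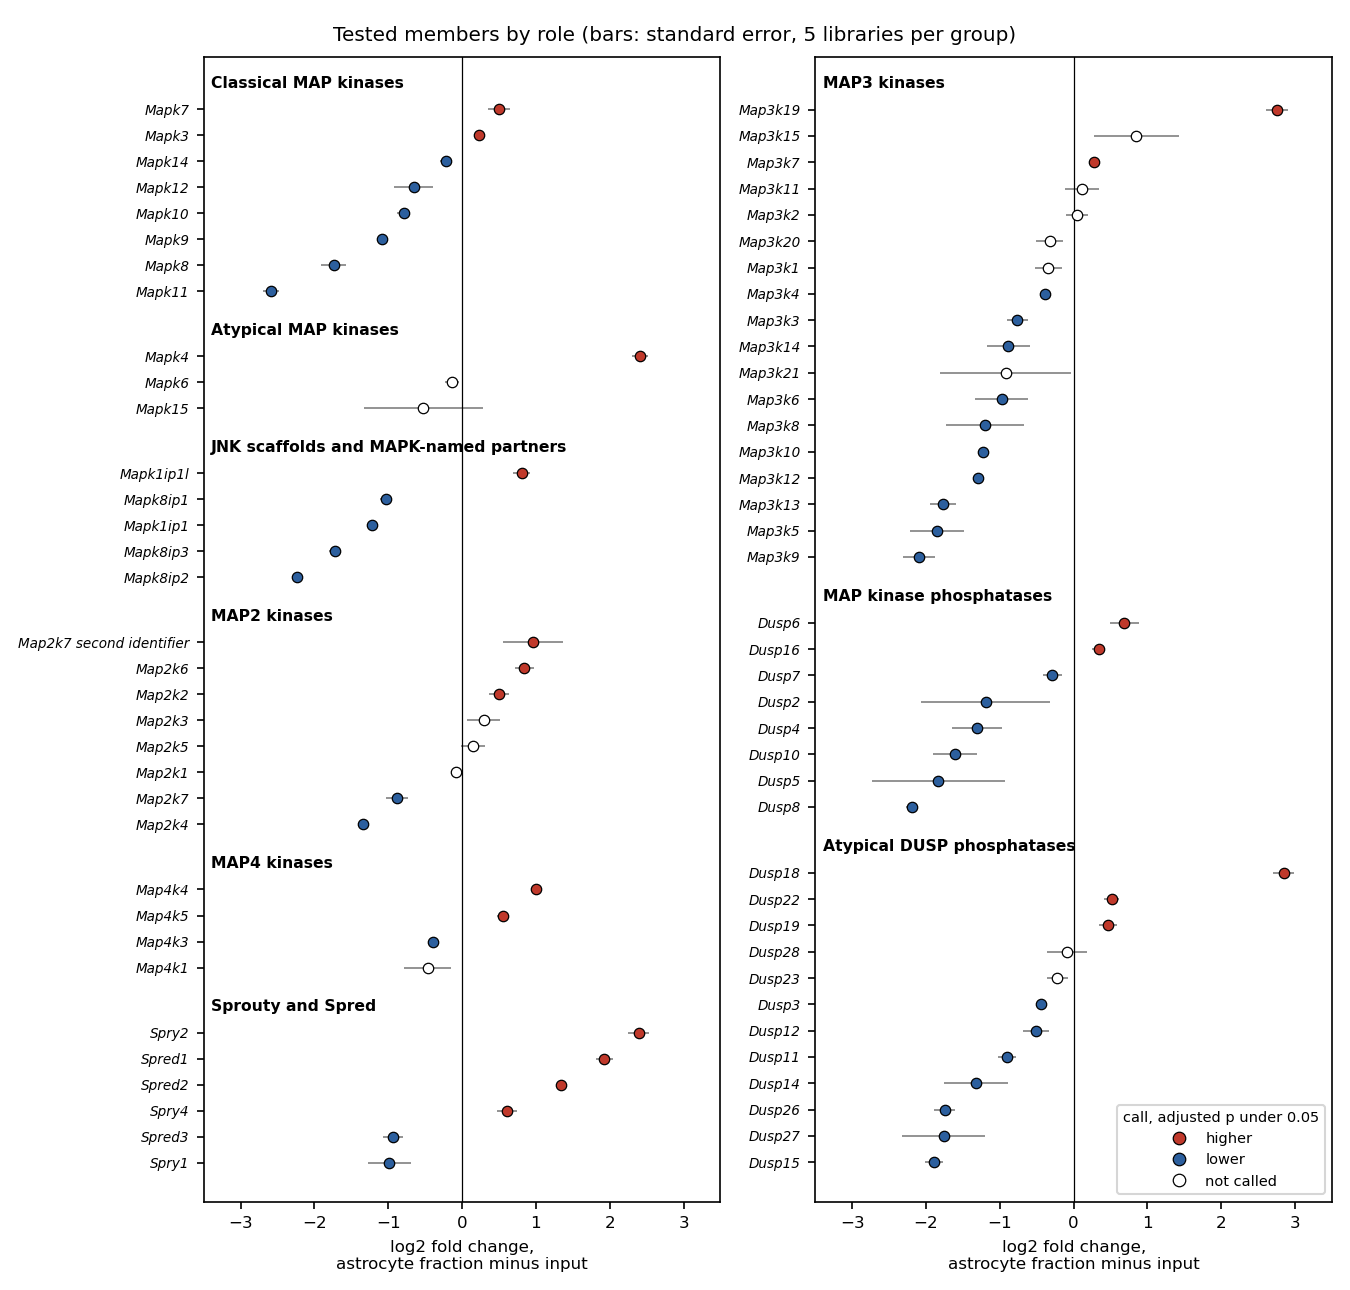
Log2 fold change of 72 of the tested members, astrocyte fraction minus input, grouped by role (horizontal axis in log2 units). Bars are standard errors of the difference in mean log2 CPM, from 5 libraries per group. Red points were higher, blue points lower and white points not called; Dusp18 and Map3k19 lie farthest to the right and Mapk11 farthest to the left.

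The classical MAP kinases divided by branch. Of 9 tested, 2 were higher (22.2%, against 33.1% of all genes) and 7 lower (77.8%, against 37.5%). Mapk3, which encodes the ERK kinase ERK1, moved little, by 0.23 ± 0.07 in log2 units (adjusted p = 0.0170). Mapk3 was at 141, 131, 139, 136 and 147 CPM in the inputs against 164, 137, 157, 178 and 175 CPM in the fractions, so that the groups overlapped. This call turned on the settings. Scaled to total counts Mapk3 had a value of -0.06 (adjusted p = 0.525), and its call was also lost when only genes with a mean of 5 CPM or more were kept and on the authors' normalized log2 values. Mapk7, the gene of ERK5, rose from 16.7 ± 1.66 to 23.4 ± 4.25 CPM (SD, n = 5), or by 0.50 ± 0.15 in log2 units, but fraction library 92 (16.1 CPM) lay within the inputs, and scaled to total counts it was not called (adjusted p = 0.166).

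All 3 JNK genes were lower in the fraction, by unequal amounts. Mapk8 (JNK1) was at 66.8, 83.9, 69.7, 78.4 and 67.4 CPM in the inputs against 17.7, 32.3, 18.7, 23.9 and 19.9 CPM in the fractions, a difference of -1.74 ± 0.17 in log2 units (adjusted p = 2.32e-07). Its highest fraction value, in library 92, stayed below the lowest input. Mapk9 (JNK2) was at 247, 281, 253, 261 and 246 CPM in the inputs against 115, 118, 143, 112 and 121 CPM in the fractions, a difference of -1.08 ± 0.07 in log2 units (adjusted p = 6.19e-08). Here too the groups were wide apart. Mapk10, which encodes the mainly neuronal JNK3, fell less, from 291 ± 25.7 to 169 ± 16.8 CPM (log2 fold change -0.79 ± 0.09). Within a library, the log2 ratio of Mapk8 to Mapk10 went from -1.99 ± 0.16 in the input to -2.93 ± 0.27 in the fraction (SD, n = 5), a difference of -0.94 ± 0.14 in an exact two-sided permutation test (p = 0.00794, the smallest this test allows with libraries exchanged freely; adjusted over 16 pairs 0.0106).

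Of the 3 measured p38 genes, Mapk11 fell to 16.6% of its input level and Mapk14 to 85.8%. Mapk11 (p38 beta; ENSMUSG00000053137, chr15:89142486-89149606) was at 29.6, 34.7, 30.5, 32.6 and 28.4 CPM in the inputs against 4.85, 3.81, 5.62, 4.96 and 5.70 CPM in the fractions. Every fraction library was far below every input, with a difference of -2.59 ± 0.11 in log2 units (adjusted p = 6.97e-10). This lies within the range of the neuronal markers, -2.77 to -2.02. Mapk14 (p38 alpha, the widely expressed form) was at 63.4 ± 3.71 and 54.2 ± 5.24 CPM, a difference of -0.22 ± 0.07 in log2 units (adjusted p = 0.0244). Leaving out a single library ended this call for 7 of the 10, namely inputs 92, 976 and 982 and fractions 88, 92, 976 and 981. Mapk12 (p38 gamma) had a difference of -0.65 ± 0.26 in log2 units at 6.38 ± 1.27 CPM in the input, and its call was lost without the input library 976 or the fraction library 88, and without the numbers 976 and 982. The ratio of Mapk11 to Mapk14 differed by -2.41 ± 0.08 on the log2 scale between fraction and input (exact permutation p = 0.00794, adjusted 0.0106). Per kilobase of exon, Mapk14 made up 53.7% ± 2.03 of the p38 level in the input and 81.99% ± 2.06 in the fraction. Mapk13 was not analysed here.

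**Figure D2:**
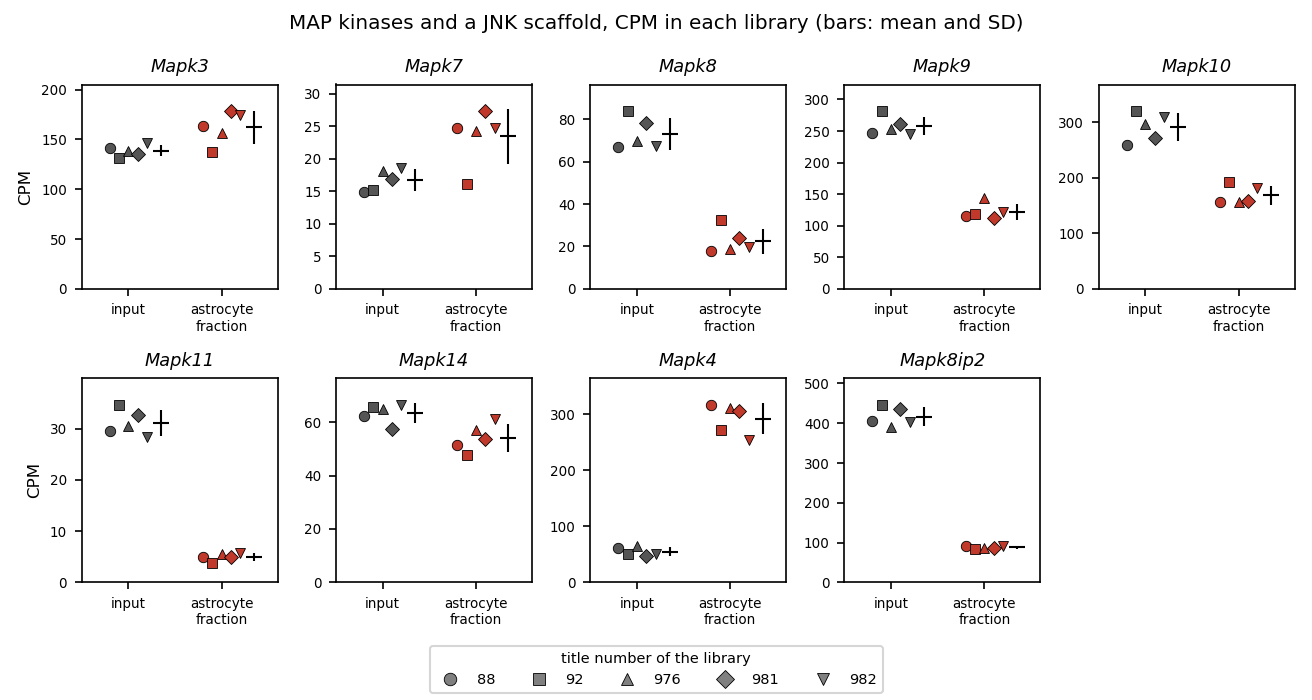
CPM (vertical axes, from 0) of 8 MAP kinase genes and the JNK scaffold gene Mapk8ip2 in each input (grey) and astrocyte fraction (red) library, with marker shape for the title number and bars for mean and SD of 5 libraries. Mapk4 stands higher in every fraction library, Mapk8, Mapk9, Mapk10, Mapk11 and Mapk8ip2 lower, and Mapk3, Mapk7 and Mapk14 overlap between groups.

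Among the atypical MAP kinases, ERK3 and ERK4 lack the usual paired phosphorylation site. Mapk4, the gene of ERK4, was the MAP kinase gene most enriched in the fraction. It was at 61.05, 49.7, 65.4, 47.5 and 50.5 CPM in the inputs against 317, 272, 311, 306 and 253 CPM in the fractions. The lowest fraction value was more than 3 times the highest input, and the log2 fold change was 2.41 ± 0.11 (adjusted p = 6.71e-10). Its relative Mapk6, the gene of ERK3, was at 79.3 ± 2.76 and 72.1 ± 10.6 CPM and was not called (log2 fold change -0.13 ± 0.10, adjusted p = 0.222). Per kilobase of exon the level of Mapk4 was 10.2 CPM in the input, close to the 11.9 CPM of Mapk6, and 53.99 CPM in the fraction, second to Mapk3 (71.9 CPM) among the MAP kinase genes. Mapk15 was low, at 1.37, 0.517, 3.21, 0.582 and 2.20 CPM in the inputs against 0.490, 0.880, 2.59, 0.171 and 1.09 CPM in the fractions, and was not called (adjusted p = 0.475); its highest values were those of number 976.

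Scaffold proteins of the JIP family, which hold JNK, its upstream kinases and kinesin motors together, were lower in the fraction at transcript level for all 3 genes with a MAP kinase symbol. Mapk8ip2 (JIP2) was at 405, 447, 390.1, 435 and 403 CPM in the inputs against 91.1, 84.5, 86.1, 86.3 and 91.8 CPM in the fractions. Every fraction library was far below every input, and the log2 fold change was -2.24 ± 0.04 (adjusted p = 5.08e-11). The motor-linked scaffold gene Mapk8ip3 (JIP3) was at 575, 626, 528, 574 and 537 CPM in the inputs against 175, 187, 150.3, 164 and 183 CPM in the fractions, a difference of -1.73 ± 0.07 in log2 units. The groups again lay far apart, and Mapk8ip3 shares 10.7% of its exon bases with Eme2 on its own strand, so its counts are less certain. Mapk8ip1 (JIP1), which per kilobase had the highest level of all members in the input (93.8 CPM), fell to 45.8 CPM per kilobase, a difference of -1.03 ± 0.08 in log2 units. The scaffold Spag9 (JIP4), which does not carry a MAP kinase symbol and belongs to the listed genes upstream of JNK and p38, was instead higher (1.01). Of the other MAPK-named partner genes, Mapk1ip1l rose from 36.2, 36.9, 37.9, 39.04 and 33.00 CPM to 58.9, 50.8, 80.4, 67.99 and 60.3 CPM (log2 fold change 0.81 ± 0.12). Mapk1ip1 went the other way, from 27.99, 31.2, 30.04, 25.03 and 27.5 CPM to 12.7, 11.2, 11.8, 11.7 and 13.2 CPM (-1.21 ± 0.07). Neither gene's groups overlapped. Both share between 10.4% and 11.1% of their exon bases with genes on the opposite strand, which counting without strand cannot separate.

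Among the MAP2 kinases, Map2k4 and the main Map2k7 entry, whose products activate JNK, were lower. Map2k1, Map2k2, Map2k3 and Map2k6 were higher or not called. Of 8 tested entries, 3 were higher (37.5%, against 33.1% of all genes), 2 lower (25%, against 37.5%) and 3 not called. Map2k4 (MKK4) was at 168, 181, 169, 179 and 168 CPM in the inputs against 61.5, 71.9, 69.6, 69.9 and 69.9 CPM in the fractions, with no overlap and a difference of -1.34 ± 0.05 in log2 units (adjusted p = 1.50e-09). Map2k7 (MKK7) fell from 89.6 ± 1.98 to 48.1 ± 11.2 CPM (log2 fold change -0.88 ± 0.14). Of this entry's exon bases, 35.2% are shared on the same strand with the other Map2k7 identifier, so its counts are less certain. In the fraction library 976 it was at 66.3 CPM, against 35.5 to 46.7 CPM in the other fractions. The other Map2k7 identifier was higher (0.96 ± 0.41, adjusted p = 0.0163), but every one of its exon bases is shared, with Map2k7 or with the neighbouring gene Tgfbr3l, so its counts cannot be assigned; in the fraction library 976 it was at 4.75 CPM against 13.8 CPM or more in the other fractions. Scaled to total counts it was not called (adjusted p = 0.0700). For p38, Map2k6 (MKK6) rose from 6.87 ± 0.572 to 12.2 ± 2.13 CPM (0.84 ± 0.13), while Map2k3 (MKK3) was not called (0.29 ± 0.23, adjusted p = 0.175). Map2k3 was called as higher once the fraction library 92 was left out (0.43, adjusted p = 0.00670). For ERK, Map2k2 (MEK2) was higher (0.50 ± 0.13, adjusted p = 0.00179) and Map2k1 (MEK1) was not called (-0.08 ± 0.08, adjusted p = 0.398). Scaled to total counts Map2k2 was not called (adjusted p = 0.144) and Map2k1 was lower (-0.36), whereas their ratio, which no scaling affects, differed by -0.56 ± 0.09 (exact permutation p = 0.00794, adjusted 0.0106). Map2k5 (MEK5), upstream of ERK5, was not called (0.15 ± 0.16). Without the fraction library 92 it was higher (0.26, adjusted p = 0.0246).

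Summed per kilobase of exon, the pair Map2k4 and Map2k7 went from 60.5 ± 1.28 CPM in the input to 27.3 ± 2.98 CPM in the fraction, and the 3 JNK genes from 70.6 ± 4.35 to 35.1 ± 2.33 CPM (SD, n = 5). The pair Map2k1 and Map2k2 stood at 69.4 ± 4.01 and 73.5 ± 8.92 CPM. The 3 p38 genes went from 26.97 ± 1.19 to 15.1 ± 1.77 CPM, and Map2k3 with Map2k6 from 4.66 ± 0.200 to 6.74 ± 1.49 CPM. These sums are levels relative to each library's counts and use the merged exons of each gene, so a long untranslated region lowers the value. For Map2k7, the sums and ratios use the main entry, which shares exon bases with the other identifier. Within families, the share of Mapk8 among the JNK genes was 9.06% ± 0.573 in the input and 5.59% ± 1.32 in the fraction. All 16 within-family ratios differed between the groups at an adjusted p of 0.0317 or less in exact permutation tests, and for 12 of them the groups did not overlap. These tests exchange libraries freely and do not use the pairing by title number. Within the 5 pairs, where an exact two-sided sign-flip test, added after seeing the data, cannot go below p = 0.0625, 15 of the ratios moved the same way in all 5 and had that p, and the ratio of Mapk9 to Mapk10 did so in 4 (exact p = 0.125).

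**Figure D3:**
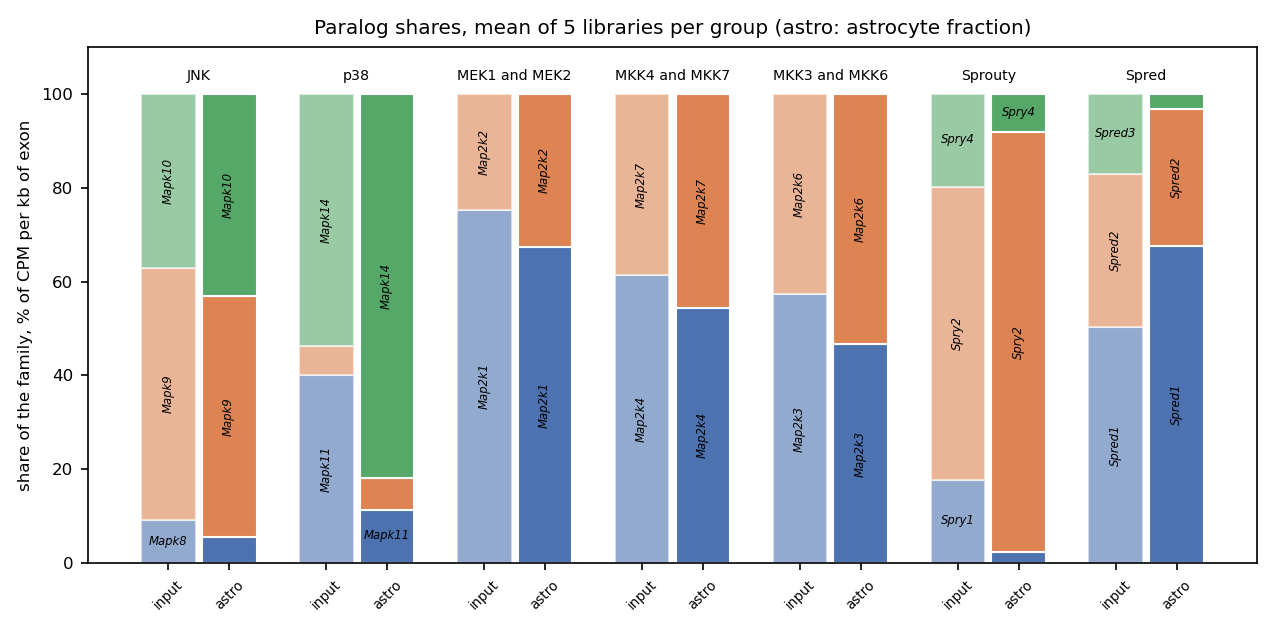
Share of each paralog in its family, for 7 families, as a percentage of the summed CPM per kilobase of exon (vertical axis), mean of 5 input (pale) and 5 astrocyte fraction (dark) libraries. Mapk14 takes 81.99% of p38 and Spry2 89.6% of Sprouty in the fraction, against 53.7% and 62.5% in the input.

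Most called MAP3 kinase genes were lower, among them those of DLK, LZK and the mixed-lineage kinases MLK1 and MLK2. Of 18 tested, 2 were higher (11.1%, against 33.1% of all genes), 10 lower (55.6%, against 37.5%) and 6 not called. Their median difference was -0.82. Map3k12 (DLK), a kinase that signals axon injury to JNK, was at 111, 119, 114, 115 and 114 CPM in the inputs against 45.9, 51.9, 44.9, 46.01 and 44.9 CPM in the fractions. The groups were far apart, at a difference of -1.30 ± 0.04 in log2 units (adjusted p = 1.54e-09). Its close relative Map3k13 (LZK) was at 23.9, 29.4, 18.1, 20.3 and 22.4 CPM in the inputs against 5.79, 9.10, 7.38, 6.11 and 5.74 CPM in the fractions (-1.77 ± 0.18). The mixed-lineage kinase Map3k10 (MLK2) was at 165, 175, 174, 156 and 176 CPM in the inputs against 72.5, 73.7, 72.6, 61.9 and 80.7 CPM in the fractions (-1.23 ± 0.07). All 3 genes were lower in every fraction library than in any input. Of the other mixed-lineage kinases, Map3k9 (MLK1) was lower (-2.09 ± 0.22), and Map3k11 (MLK3) was not called (0.12 ± 0.23, adjusted p = 0.570). Map3k21 (MLK4) was at 1.90, 2.98, 4.13, 3.33 and 2.94 CPM in the inputs against 0.612, 0, 4.86, 0.299 and 1.31 CPM in the fractions, where the 0 in library 92 allows up to 0.880 CPM (3 counts). Its highest value came from fraction library 976. It was not called (-0.92 ± 0.89, adjusted p = 0.226), but was lower once same-numbered libraries were paired by a block (-1.44, adjusted p = 0.0253) and without that library (-1.995, adjusted p = 0.00155). Map3k10 and Map3k12 share 14.8% and 19.3% of their exon bases with genes on the opposite strand.

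Map3k19 (ENSMUSG00000051590, chr1:127815253-127855031) went the other way. It was at 5.06, 5.65, 4.28, 6.28 and 4.46 CPM in the inputs against 37.3, 43.7, 29.3, 36.05 and 30.8 CPM in the fractions. Its log2 fold change of 2.76 ± 0.15 (adjusted p = 2.83e-09) lies within the range of the 12 astrocyte markers, 2.65 to 3.39. Per kilobase of exon its level in the fraction was 7.26 CPM, next to the 7.81 CPM of Map3k11 and below the 17.4 CPM of Map3k10. Map3k7 (TAK1), which relays cytokine and TGF-beta signals to p38 and JNK, was at 47.7, 56.99, 49.02, 50.8 and 46.5 CPM in the inputs against 59.2, 64.3, 58.5, 64.8 and 57.1 CPM in the fractions. Its values barely cleared each other, at 0.27 ± 0.06 (adjusted p = 0.00569). Scaled to total counts it had a value of -0.01 (adjusted p = 0.884).

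Of the remaining MAP3 kinases, Map3k5 (ASK1), a sensor of oxidative stress, fell from 37.8 ± 7.75 to 10.3 ± 5.93 CPM (-1.85 ± 0.36), with fraction library 976 (20.1 CPM) above the others. Map3k15 was likewise highest in fraction library 976 (13.4 CPM, against 3.57 CPM at most in the other fractions) and was not called. Without that library its value was -0.02. That library also held 11036 CPM of Ttr; the 7 tested choroid plexus and ependyma markers, of which 1 was higher and 6 were not called, summed to 27.02 to 3274 CPM in the inputs and 115 to 12464 CPM in the fractions, and their part in these values was not tested. Map3k3 (-0.76), Map3k4 (-0.39), Map3k14 (-0.89), which encodes the NF-kappaB inducing kinase, Map3k6 (-0.98) and Map3k8 (-1.20) were lower. The Map3k6 call was lost without the input library 976 (adjusted p = 0.0504), and the Map3k6 and Map3k8 calls without the numbers 976 and 982 (adjusted p = 0.135 and 0.128). Map3k1, Map3k2 and Map3k20 had values of -0.35, 0.05 and -0.32 and were not called. Without the fraction library 92, Map3k1 (-0.41) and Map3k20 (-0.42) were lower, with adjusted p = 0.0405 and 0.0267.

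MAP4 kinases, which act on JNK signalling from above, went both ways. Of 5 tested, 2 were higher (40%, against 33.1% of all genes), 2 lower (40%, against 37.5%) and 1 not called. Map4k4 (HGK) was at 153, 153, 162, 164 and 146 CPM in the inputs against 327, 276, 290.5, 349.7 and 321 CPM in the fractions, a difference of 1.01 ± 0.07 in log2 units (adjusted p = 7.51e-08). The groups were wide apart. Map4k5 was at 30.4, 38.8, 30.6, 34.9 and 32.1 CPM in the inputs against 48.8, 49.01, 44.8, 54.9 and 46.9 CPM in the fractions (0.55 ± 0.08). Map4k3 (GLK) was at 41.2, 47.97, 41.7, 41.2 and 41.5 CPM in the inputs against 29.05, 32.9, 35.3, 34.8 and 30.4 CPM in the fractions (-0.40 ± 0.07). Neither gene's groups overlapped. Map4k1 (HPK1), mainly a kinase of blood cells, was at most at 1.17 CPM in any library and was not called (-0.47 ± 0.32).

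Sprouty and Spred genes were the only role in which most members were higher. Of 6 tested, 4 were higher (66.7%, against 33.1% of all genes) and 2 lower (33.3%, against 37.5%). Their median difference was 0.97 in log2 units. Spry2 (ENSMUSG00000022114, chr14:105891947-105896819) was at 24.4, 29.5, 34.9, 22.7 and 31.3 CPM in the inputs against 138, 178, 141, 130.1 and 166 CPM in the fractions. The lowest fraction library exceeded the highest input by more than 3 times, and the log2 fold change was 2.39 ± 0.14 (adjusted p = 4.13e-09). Spred1 was at 136, 115, 115, 127 and 107 CPM in the inputs against 458, 515, 359.8, 523 and 428 CPM in the fractions, a difference of 1.92 ± 0.12 in log2 units (adjusted p = 5.01e-09). Spred2 was at 54.6, 54.5, 54.2, 50.5 and 51.4 CPM in the inputs against 117, 141, 123, 139 and 151 CPM in the fractions, a difference of 1.34 ± 0.07 in log2 units (adjusted p = 8.05e-09). None of these 3 genes overlapped between the groups. Spry4 rose less, from 20.3 ± 0.853 to 31.3 ± 6.77 CPM (0.60 ± 0.14). All 4 also passed with total count scaling and without the numbers 976 and 982.

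The other family members went down. Spry1 was at 11.1, 10.9, 13.3, 10.9 and 9.60 CPM in the inputs against 3.59, 4.11, 9.65, 3.59 and 6.56 CPM in the fractions, a difference of -0.99 ± 0.29 in log2 units (adjusted p = 0.00421). One fraction library, 976, overlapped the inputs, and 24.4% of the gene's exon bases are shared with a gene on the opposite strand. Spred3 was at 37.1, 37.7, 36.3, 43.7 and 31.1 CPM in the inputs against 20.2, 14.1, 20.8, 19.03 and 21.5 CPM in the fractions (-0.94 ± 0.13). The ratio of Spry1 to Spry2 differed by -3.53 ± 0.30 on the log2 scale, and that of Spred1 to Spred3 by 2.88 ± 0.20 (exact permutation p = 0.00794 for each, adjusted 0.0106). Per kilobase of exon, Spry2 held 62.5% ± 3.55 of the summed Sprouty level in the input and 89.6% ± 1.21 in the fraction, and Spred3 held 16.97% ± 1.43 and 3.15% ± 0.742 of the Spred level. The Sprouty sum went from 21.8 ± 2.72 to 80.7 ± 11.3 CPM per kilobase and the Spred sum from 35.2 ± 2.26 to 99.5 ± 10.9 CPM per kilobase. Spry3 was not analysed here.

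Among the MAP kinase phosphatases, 2 of 8 tested were higher (25%, against 33.1% of all genes) and 6 lower (75%, against 37.5%). Dusp6, a cytoplasmic phosphatase specific for ERK and a feedback target of ERK activity, was the most enriched. It was at 22.4, 33.5, 30.5, 22.99 and 32.04 CPM in the inputs against 43.9, 52.2, 37.2, 34.4 and 61.3 CPM in the fractions, a difference of 0.69 ± 0.20 in log2 units (adjusted p = 0.00298). The groups nearly touched. Dusp16, which acts on JNK and p38, was higher by 0.34 ± 0.08, but scaled to total counts its value was 0.05 (adjusted p = 0.643).

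Dusp8 (ENSMUSG00000037887, chr7:142079490-142095843), a brain-expressed phosphatase of JNK and p38, fell most. It was at 147, 149, 141, 152 and 136 CPM in the inputs against 29.8, 34.04, 28.2, 30.5 and 36.7 CPM in the fractions, a difference of -2.19 ± 0.07 in log2 units (adjusted p = 2.07e-10). Dusp10, of the same class, was at 7.74, 4.92, 5.93, 5.20 and 6.09 CPM in the inputs against 1.67, 1.17, 3.15, 1.03 and 2.17 CPM in the fractions (-1.61 ± 0.30). The nuclear phosphatase gene Dusp4 was at 8.48, 11.7, 9.36, 8.90 and 11.3 CPM in the inputs against 3.06, 7.63, 3.91, 1.97 and 4.70 CPM in the fractions (-1.31 ± 0.34), with its highest fraction value in library 92. In none of these 3 genes did the groups overlap. The inducible nuclear phosphatase Dusp5 fell from 7.89 ± 2.84 to 1.95 ± 1.81 CPM (-1.83 ± 0.90), and 22.1% of its exon bases are shared with a gene on the opposite strand. Dusp2 was at most at 0.832 CPM in any library. Its call as lower (-1.19 ± 0.87, adjusted p = 0.0378) was lost in 8 of the 10 fits that left out 1 library, all but those without the fraction library 92 or 982. Dusp7, a cytoplasmic ERK phosphatase like Dusp6, was slightly lower (-0.29 ± 0.12, adjusted p = 0.0404). Its call was lost without any of the same 7 libraries as that of Mapk14, and without a filter on low counts.

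**Figure D4:**
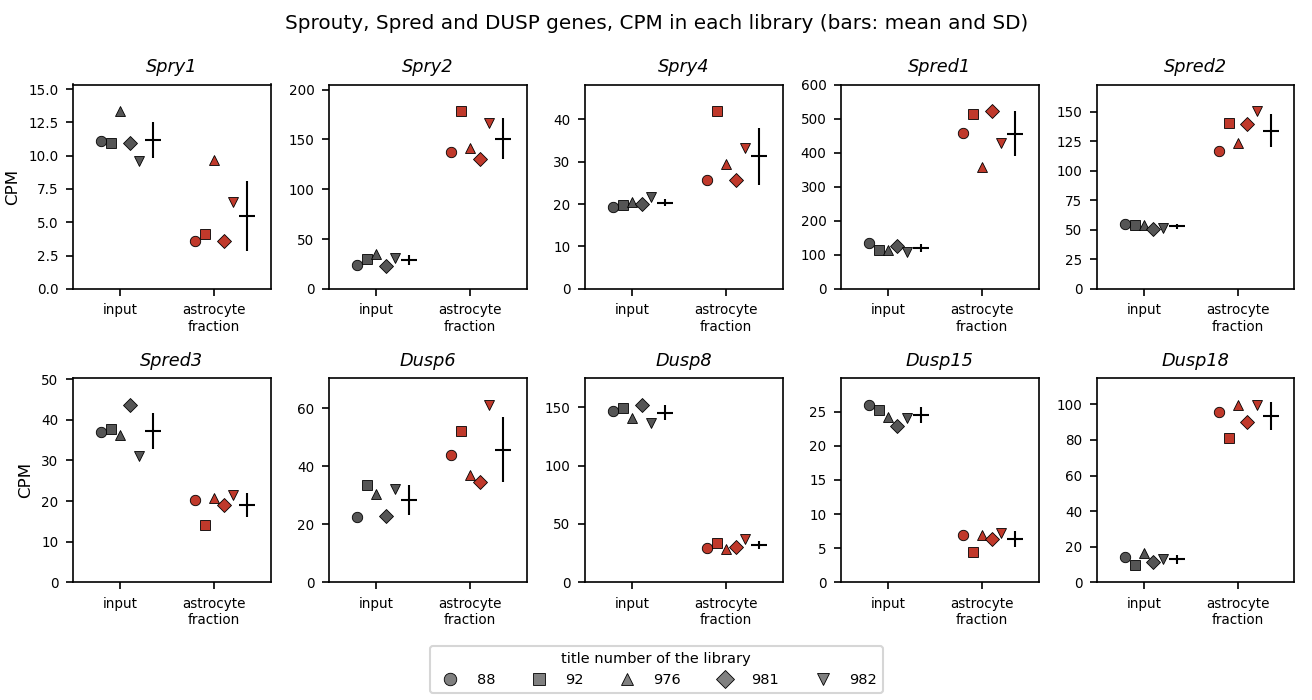
CPM (vertical axes, from 0) of the Sprouty and Spred genes and of 4 DUSP genes in each input (grey) and astrocyte fraction (red) library, with marker shape for the title number and bars for mean and SD of 5 libraries. Spry2, Spred1, Spred2 and Dusp18 are higher in every fraction library, and Spred3, Dusp8 and Dusp15 lower; in Spry1 the fraction library 976 lies among the inputs.

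The atypical DUSPs, a looser class with substrates beyond MAP kinases, held the most enriched member of all. Of 12 tested, 3 were higher (25%, against 33.1% of all genes), 7 lower (58.3%, against 37.5%) and 2 not called. Dusp18 (ENSMUSG00000047205, chr11:3895240-3901296) was at 14.01, 9.88, 16.5, 11.4 and 12.96 CPM in the inputs against 95.9, 80.99, 99.8, 90.1 and 99.8 CPM in the fractions. The groups were far apart, with a difference of 2.85 ± 0.14 in log2 units (adjusted p = 8.05e-10), within the range of the astrocyte markers. Dusp22 was at 25.2, 29.9, 24.3, 28.3 and 27.2 CPM in the inputs against 43.9, 35.2, 32.7, 44.6 and 36.1 CPM in the fractions (0.52 ± 0.10). Dusp19 was at 8.54, 8.72, 9.47, 7.73 and 9.95 CPM in the inputs against 12.6, 9.10, 13.6, 13.4 and 12.1 CPM in the fractions (0.47 ± 0.12). The groups of Dusp22 did not overlap, and those of Dusp19 did through fraction library 92. Both calls were lost when libraries were scaled to total counts (adjusted p = 0.0553 and 0.248).

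Dusp15, a phosphatase linked to oligodendrocyte differentiation, was at 26.04, 25.3, 24.3, 22.9 and 24.1 CPM in the inputs against 6.94, 4.40, 6.90, 6.41 and 7.23 CPM in the fractions (-1.89 ± 0.13, adjusted p = 1.44e-08). The lowest of its fraction values came from library 92. Dusp26, a phosphatase found in neural and endocrine tissue, was at 125, 102, 135, 142 and 137 CPM in the inputs against 35.7, 30.2, 35.1, 48.02 and 39.7 CPM in the fractions (-1.75 ± 0.14). Dusp11, whose product acts on RNA and not on MAP kinases, was at 59.9, 73.2, 65.6, 68.4 and 46.5 CPM in the inputs against 32.4, 36.7, 32.9, 29.9 and 36.2 CPM in the fractions (-0.90 ± 0.13). In these 3 genes the groups did not overlap. Dusp3 (-0.45), Dusp12 (-0.51), Dusp14 (-1.32) and Dusp27 (-1.76) were also lower, though without the numbers 976 and 982 Dusp12 (adjusted p = 0.261) and Dusp27 (0.0543) were not called. Dusp12 shares 49.8% and Dusp3 12.9% of exon bases with genes on the opposite strand. Dusp23 (-0.22) and Dusp28 (-0.09) were not called.

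The starts of these genes were read for known response elements, because several members respond to cAMP, growth factor or stress signals in other tissues. RefSeq promoter windows (build GRCm38.p6), taken here as the 250 bases before each start, matched 57 members by symbol, with 69 starts. The cAMP response element TGACGTCA, searched on both strands, stood in 508 of 32851 promoters (1.55%) and in those of 2 members, Mapk10 and Dusp8, both lower in the fraction. Each copy also holds its core TGACG on both strands. This core was in 17.8% of all promoters and in 19 of the 69 member promoters (27.5%), belonging to 3 members that were higher, 12 lower and 4 not called. With or without the core, 16 of the 69 belonged to higher members, 39 to lower and 14 to uncalled ones. The AP-1 element TGANTCA was in 3 members and 6.75% of all promoters, and the ETS core CCGGAAG in 5 members and 6.91% of all promoters. The Dusp8 window held 2 copies of TGACGTCA, as did 10 windows (0.0304%) in all. The windows of Dusp8 and Mapk10 are shown beside those of Spry2 and Spred2, higher in the fraction, of which Spry2 has no match and Spred2 a single core; capitals mark TGACG, TGACGTCA or their reverse complement.
Mapk10 (chr5:103211335-103211584, minus strand): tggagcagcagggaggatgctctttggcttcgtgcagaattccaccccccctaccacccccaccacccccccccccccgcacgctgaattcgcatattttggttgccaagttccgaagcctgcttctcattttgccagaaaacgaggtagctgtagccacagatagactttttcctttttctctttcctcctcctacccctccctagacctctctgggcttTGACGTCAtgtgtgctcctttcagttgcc
Dusp8 (chr7:142095285-142095534, minus strand): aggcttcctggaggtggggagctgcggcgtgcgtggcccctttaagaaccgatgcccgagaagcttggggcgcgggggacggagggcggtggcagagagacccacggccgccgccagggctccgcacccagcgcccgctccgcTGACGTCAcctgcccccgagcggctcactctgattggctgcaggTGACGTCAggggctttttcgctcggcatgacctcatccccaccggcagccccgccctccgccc
Spry2 (chr14:105896820-105897069, minus strand): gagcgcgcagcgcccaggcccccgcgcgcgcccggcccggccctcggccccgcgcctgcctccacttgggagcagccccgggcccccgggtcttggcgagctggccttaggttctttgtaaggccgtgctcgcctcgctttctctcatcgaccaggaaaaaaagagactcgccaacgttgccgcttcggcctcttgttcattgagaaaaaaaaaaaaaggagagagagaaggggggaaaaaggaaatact
Spred2 (chr11:19924192-19924441, plus strand): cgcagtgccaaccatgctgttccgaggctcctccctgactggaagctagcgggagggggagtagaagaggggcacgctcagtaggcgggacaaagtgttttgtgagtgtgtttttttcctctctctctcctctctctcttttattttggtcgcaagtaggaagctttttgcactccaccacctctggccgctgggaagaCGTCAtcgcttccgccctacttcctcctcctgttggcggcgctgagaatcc
These matches are a description of letters, not of binding. Mapk10 has 2 windows in the table, of which the one with the match is shown. The RefSeq starts of Dusp8 and Spred2 lie inside the genes as the deposited table places them. The Spred2 window thus overlaps the gene, which starts there at position 19924375. The Dusp8 window, with both TGACGTCA copies, lies wholly inside its gene, whose minus-strand start there is position 142095843. Member promoters had a median of 17 CpG dinucleotides, with 23 for higher and 17 for lower members, against 6 over all promoters in the table. TGACG itself holds a CpG, and the part of CpG content in its share among member promoters was not tested.

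Genes that work with the members were read from 3 lists. Of 37 genes at the Ras and Raf level of the ERK pathway, 16 were higher (43.2%), 16 lower (43.2%) and 5 not called. All genes tested gave 33.1% higher and 37.5% lower. The median difference of this list was -0.18. The small GTPase genes Rras (2.30) and Mras (2.08) and Pea15a (1.93), whose astrocyte phosphoprotein holds ERK in the cytoplasm, were higher. The Ras activator Rasgrf1 (-2.39) and the adaptor Shc2 (-2.45) were lower.

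Of 33 kinases and transcription factors downstream of MAP kinases, 9 were higher (27.3%), 18 lower (54.5%) and 6 not called. All genes tested gave 33.1% higher and 37.5% lower. The median difference of this list was -0.34, beside -0.06 for all genes. Mapkapk3, a kinase activated by p38, went from 2.89 ± 0.601 to 21.8 ± 5.15 CPM (log2 fold change 2.87). The ETS factor genes Etv4 (2.24) and Etv5 (1.81) were higher. The immediate early gene Egr1 (-2.36), Ets2 (-1.13) and Mef2d (-0.95) were lower. Of 25 listed adaptors, kinases and GTPases upstream of JNK and p38, 13 were higher (52%, against 33.1% of all genes). Of the others, 6 were lower (24%, against 37.5%) and 6 not called. The median difference of this list was 0.33. Pak2 (1.33), Rac1 (1.06) and the stress gene Gadd45g (1.98) were higher, whereas the neuronal kinases Pak1 (-2.15) and Pak3 (-2.16) and Taok2 (-0.73) were lower.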

How the data were processed

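Gene-level RNA-seq values of 10 libraries were analysed. The authors deposited 1 table with raw and normalized columns. Per the file headers and from the values, the raw columns are expected counts per gene, not scaled, and the normalized columns are log2 values, centred by the authors per gene near the input median. CASAVA 1.8, DESeq and mm10 stand in the submitters' processing notes without a role; no aligner, counter or strand setting is given there or in the labels.

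The expected counts, rounded to integers, were fitted over all genes with edgeR 4.0.16 in R 4.3.3 (quasi-likelihood test, TMM scaling, filterByExpr at minimum count 10, prior count of 2, Benjamini-Hochberg adjustment over 17672 genes, called at an adjusted p of 0.05). Fold changes are the astrocyte fraction relative to the input, as fitted. The SE beside them was computed apart from the fit, from the spread of log2 CPM (offset of 0.5 counts) within each group. CPM values use TMM-scaled library sizes. Levels per kilobase divide CPM by the merged exon length in GENCODE M21, the annotation also used for shared exon bases. The 16 within-family ratios were compared by an exact permutation test over libraries (scipy 1.17.1), and the families were written down after values had been seen. Alternatives used DESeq2 1.42.0, limma 3.58.1 and other scalings, filters and sets of libraries. The code was tested on simulated data.

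Libraries with the same title number deviated together from their group means, with correlations over genes of 0.357, 0.188, 0.463, 0.294 and 0.176 for the numbers 88, 92, 976, 981 and 982, so the numbers were taken to pair the libraries. This pairing comes from the titles and these correlations. The main fit did not use it, so its p-values are unpaired. Among the tests, only the alternative with the title number as a block and the sign-flip test used the pairing. The members and lists were chosen with earlier results of these data known. Values of every library are given for called members whose groups do not overlap and that moved at least 2-fold among the MAP kinases, MAP2 kinases, phosphatases and Sprouty genes, and in each other role for up to 3 members per direction with the smallest adjusted p. Of each pathway list, up to 3 genes per direction are named in the same way; Spag9 and the library values of further members were added after their values were seen. Some members and list genes, among them ones that this rule names, are not reported here, though they enter the counts.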

Additional observations from a re-analysis of the deposited data

Results flagged for a closer look

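Single libraries that stood apart were sought on the log2 CPM scale. In 9 of the 150 groups of 5 libraries (6%), 1 library lay more than 0.71 of the group's range from the other 4. Chance gives about 1 in 20. The values below are in CPM. In the fraction library 92, the shallowest, Mapk7 was low at 16.1 CPM (others 24.2 to 27.3), Dusp15 was low at 4.40 CPM (others 6.41 to 7.23) and Map3k12 was high at 51.9 CPM (others 44.9 to 46.0). In the input library 92, Map2k1 was low at 158 CPM (others 179 to 184) and Map4k3 was high at 47.97 CPM (others 41.2 to 41.7). The Map2k7 second identifier, whose exon bases are all shared with other genes, was low at 4.75 CPM in the fraction library 976 (others 13.8 to 19.4), and Map2k5 was high at 31.3 CPM in the input library 976 (others 24.4 to 25.9). Map2k4 was low at 61.5 CPM in the fraction library 88 (others 69.6 to 71.9). Dusp2 was high at 0.832 CPM in the input library 981 (others 0.486 to 0.559), a level of about 20 counts.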

How the results depend on the processing

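Of 1395 member results under 19 alternatives, 1317 kept their direction and their side of the threshold, 47 lost and 19 gained the call and 12 changed sign; 44 members kept both under every alternative run. Scaling to total counts, which lowers every fold change by its construction, gave 12 members higher in place of 20 and 1 MAP kinase phosphatase higher in place of 2, and turned the sign of Mapk3 (-0.059), Map3k7 (-0.012), Map2k5 (-0.13), Map3k2 (-0.23) and Map3k11 (-0.16). Uncalled genes near 0 also turned: Map3k2 with a mean of at least 5 CPM (-0.045), without the input library 982 (-0.031) or the fraction library 981 (-0.0024), Map3k15 without the fraction library 976 (-0.023) or the numbers 976 and 982 (-0.39), and Dusp28 without the fraction library 92 (0.066) or the number 92 (0.0034), an alternative chosen after seeing the data. Over the fits without 1 library Map3k2 ranged from -0.031 to 0.14, Map3k15 from -0.023 to 1.08 and Dusp28 from -0.14 to 0.066. The cause was not tested. Leaving out 1 library gave 20 to 22 members higher and 35 to 40 lower, and 9 to 12 MAP3 kinases lower, with 4 Sprouty and Spred genes and 2 MAP kinase phosphatases higher each time.

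With the title number as a replicate block, 20 members were higher and 41 lower; Map3k21 (-1.44) was the only member whose call the block changed. The fraction library 92 limits low members most.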
